A study of Mus musculus with 21 samples.

Results

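Rtp1, Rtp2, Reep1, Ric8b and Gfy are genes grouped here as helpers of odorant receptors, or of the signalling machinery they use, in olfactory sensory neurons (OSN). They were taken by symbol from both expression tables, and all 5 were present in both, among 22786 genes that the tables share. The libraries came from mouse main olfactory epithelium, dissociated with papain and sorted for mCherry. Every mouse carried a tetO transgene that is switched on by tTA: tetO-HyperTRIBE-mCherry (HT) or tetO-Mex3a-HyperTRIBE-mCherry (MexHT), where HyperTRIBE is an RNA-editing domain and Mex3a is an RNA-binding protein. With the genotype gg8tTA; OMPtTA there were 6 MexHT and 3 HT libraries of mCherry-positive cells, labelled as immature and mature OSN and called OSN here. The same mice gave 5 MexHT and 3 HT libraries of mCherry-negative cells, which the labels call internal controls from the same mouse. With gg8tTA only there were 2 MexHT libraries of mCherry-positive cells, labelled as immature OSN (gg8 MexHT OSN), and 2 of mCherry-negative cells, and no HT mice. The driver decides which cells are sorted: the gg8 promoter is active in immature OSN and the OMP promoter in mature OSN. All mice, controls included, carried a HyperTRIBE transgene and at least 1 tTA driver, and ages were not given in the sources used here. The library names of the gg8tTA; OMPtTA mice carry another date than those of the gg8tTA mice, so the part of the driver and that of the date cannot be told apart, and the tables were scaled separately. The title of the study asks how Mex3a times translation and protein trafficking during OSN differentiation. Whether that trafficking involves these 5 genes was not tested.

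Odorant receptors are G protein-coupled receptors that are made at the endoplasmic reticulum (ER) and, in most other cell types, stay there. Rtp1 and Rtp2 encode receptor transporting proteins, membrane proteins that carry odorant receptors to the cell surface, and Reep1 encodes an ER-shaping membrane protein that was found together with them as a receptor helper. Ric8b is a chaperone and nucleotide exchange factor for Golf, the G protein encoded by Gnal that odorant receptors activate. Gfy encodes Goofy, a Golgi membrane protein of OSN that is needed for normal amounts of signalling proteins in the olfactory cilia. As OSN mature they lose Gap43 and Gng8 and gain Omp and the cilia cascade of Gnal, Adcy3 and the cyclic nucleotide-gated channel.

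The genes are spread over 4 chromosomes in GRCm38 (mm10). In the GENCODE annotation Rtp1 lies on chromosome 16 from 23429133 to 23433960 (plus strand) and Rtp2 on the same chromosome from 23925548 to 23932394 (minus strand), 491.6 kb apart, with Rtp4 between them. Reep1 lies on chromosome 6 from 71707561 to 71810710 (plus strand), Ric8b on chromosome 10 from 84917616 to 85018337 (plus strand) and Gfy on chromosome 7 from 45176349 to 45179569 (minus strand). RefSeq promoter windows on GRCm38.p6, from 250 bases before to 50 after the start of the gene, were matched for 4 of the 5 genes. They were searched on both strands for the core of the site of Ebf factors, the transcription factors that bind many OSN genes, in the form CCCNNGGG and in a longer form, the same core with a T before and an A after it. The core is present in 13.7% of 32851 such windows and the longer form in 0.904%. The windows of Rtp2, Reep1 and Gfy hold the core, and that of Gfy also holds the longer form. The RefSeq starts that set the windows are not the ends of the GENCODE genes given above. The RefSeq start of Rtp2 (23930794) lies 1600 bases inside the GENCODE gene, so its 250 bases before the start lie in the gene but in none of its exons. The RefSeq start of Reep1 (71707681) lies 120 bases inside, and 120 of its 250 bases, the match included, are annotated as untranslated exon, so that window is not printed. The window of Gfy lies outside its GENCODE gene. The 250 bases before the RefSeq start of Rtp2 and Gfy are shown 5′ to 3′ on the strand of the gene because they hold the motif, with its match in capitals.
Rtp2, chr16:23930795-23931044, minus strand: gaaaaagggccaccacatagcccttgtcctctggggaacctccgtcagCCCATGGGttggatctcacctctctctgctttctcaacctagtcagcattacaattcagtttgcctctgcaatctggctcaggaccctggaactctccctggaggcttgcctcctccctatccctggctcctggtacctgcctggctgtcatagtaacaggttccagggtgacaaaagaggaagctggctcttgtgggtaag
Gfy, chr7:45179598-45179847, minus strand: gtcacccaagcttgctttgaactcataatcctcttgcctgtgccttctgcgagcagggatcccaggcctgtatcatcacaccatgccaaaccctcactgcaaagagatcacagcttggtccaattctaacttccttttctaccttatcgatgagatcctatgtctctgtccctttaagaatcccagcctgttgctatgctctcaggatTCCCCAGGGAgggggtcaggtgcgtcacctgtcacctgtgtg
The matches start at -202 in Rtp2, -65 in Reep1 and -42 in Gfy, counted in bases from the RefSeq start. The homeodomain cores TAATTA (5.29% of windows) and TAATTG (8.0%) had no match in the 4 windows.

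Values are deposited TPM, a level scaled to transcript length and to the library total, and whole counts recovered from them summed to between 7529053 and 15358109 per library over the 21 libraries. Mex3a, carried by the MexHT transgene, stood at 328.5 to 1271 TPM in MexHT OSN and 24.0 to 61.5 TPM in HT OSN, which matches those labels. Summed over 10 mature OSN markers (Omp, Stoml3, Adcy3 and others), the level was 1755 to 6711 TPM in MexHT OSN, 10205 to 15869 TPM in HT OSN and 263.1 to 542.3 TPM in gg8 MexHT OSN. Of 10 immature OSN markers in gg8 MexHT OSN against their mCherry-negative cells, 5 had a positive and 5 a negative log2 difference (median -0.036), and Gng8 was called higher (663.9 to 1256 TPM against 184.8 to 244.8 TPM) while Gap43 was at 93.8 to 671.6 TPM against 498.1 to 614.5 TPM. The sum of these 10 was 5702 to 7143 TPM in the sorted cells, labelled immature, and 4454 to 5677 TPM in the mCherry-negative cells. The mCherry-negative cells were not free of OSN: their mature marker sums were 329.7 to 8150 TPM in MexHT, 6173 to 13080 TPM in HT and 8483 to 15184 TPM in gg8 MexHT mice. MexHT mCherry-negative replicates 3 and 5 (1399 and 329.7 TPM) and MexHT OSN replicate 5 (1755 TPM) stood below the rest of their groups. HT replicate 3 was the lowest of its group in OSN (10205 TPM) and in mCherry-negative cells (6173 TPM). Its OSN library also had the highest immune marker sum of the HT OSN libraries (5197 TPM, against 1645 and 1274 TPM). Its odorant receptor sum was the lowest of them (799.4 TPM, against 3091 and 2996 TPM). Xist was at 58.4 TPM or more in all 6 MexHT OSN libraries and in 1 of 3 HT OSN libraries (60.3 TPM), with at most 0.140 TPM in the other 2, so the Xist level was not balanced over the constructs. In the gg8tTA mice it was 0.441 TPM in OSN and 0.144 TPM in mCherry-negative cells of mouse 1, and 159.4 and 21.4 TPM in those of mouse 2.

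Gfy was by far the most abundant helper and one of the most abundant RNAs of the cells. By mean TPM it ranked 5 of 16676 genes reaching 1 TPM in HT OSN, 16 of 15561 in MexHT OSN, 6 of 16429 in gg8 MexHT mCherry-negative cells and 64 of 15171 in gg8 MexHT OSN. In HT OSN the mean levels were 4277 TPM ± 627 (SD, n = 3) for Gfy, 574.1 ± 108 for Rtp1, 438.5 ± 141 for Ric8b, 326.7 ± 55.0 for Rtp2 and 97.1 ± 15.0 for Reep1. The ranges of Rtp1 and Ric8b overlapped between libraries, as did those of Ric8b and Rtp2, whereas Gfy and Reep1 stood apart from the other 3. Within each of the 3 libraries Rtp1 was above Ric8b and Ric8b above Rtp2. Within the table of gg8tTA; OMPtTA mice, mean Rtp1, Rtp2, Ric8b and Gfy were highest in HT OSN, then in HT mCherry-negative cells, then in the MexHT groups. Reep1 did not follow that order: its mean in HT OSN (97.1 TPM) was close to that in MexHT OSN, 96.3 ± 29.4 (n = 6), followed by 61.0 ± 23.5 (n = 3) in HT mCherry-negative and 27.7 ± 17.6 (n = 5) in MexHT mCherry-negative cells. Neighbouring groups in these orders overlapped, while HT OSN did not overlap with MexHT OSN for the 4 genes other than Reep1.

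**Figure D1:**
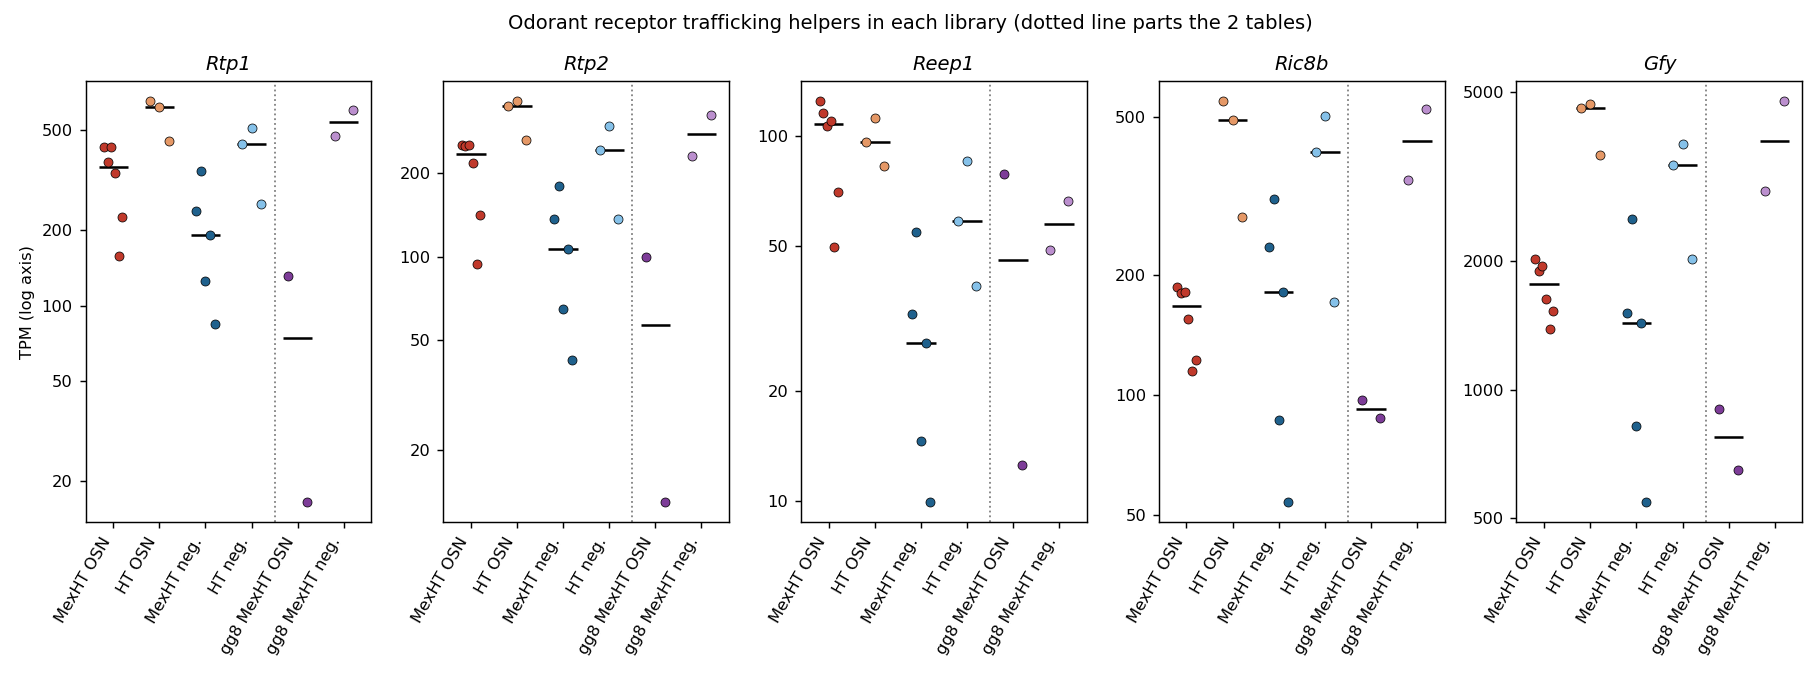
Level of each helper gene (TPM, log axis) in each of the 21 libraries; points are libraries, bars are group medians and the dotted line parts the 2 separately scaled tables. All 3 HT OSN libraries lie above all 6 MexHT OSN libraries for Rtp1, Rtp2, Ric8b and Gfy, and within their range for Reep1.

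MexHT OSN were compared with HT OSN to see how the helpers stood when the sorted neurons carried Mex3a with the editing domain rather than the domain alone. Rtp1, Ric8b and Gfy were lower in MexHT OSN, and Reep1, with near-equal means, was not called. Of the 5 helpers 3 passed an adjusted p under 0.05 and all 3 were lower, where 36.8% of 16067 genes tested were called and 16.8% were called lower. Groups did not overlap, with MexHT lower, for 4 helpers, against 16.9% of all genes.

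Rtp1 was at 158.3, 355.8 and 428.8 TPM (lowest, median and highest) in the 6 MexHT OSN libraries and at 653.3, 617.8 and 451.1 TPM in the 3 HT OSN libraries. Every HT library was above every MexHT library. The fitted log2 difference was -0.89 (SE 0.31, adjusted p = 0.0432), which is 1.85-fold lower. That call rests on single libraries: leaving out HT OSN replicate 1, 2 or 3 gave an adjusted p of 0.146, 0.129 and 0.0512, and leaving out MexHT OSN replicate 4 or 6 gave 0.0606 and 0.0772. It stayed under 0.05 in the other 4 of 9 such fits.

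Rtp2, the close relative of Rtp1, was at 94.2, 234.2 and 254.1 TPM in MexHT OSN and at 351.0, 365.3 and 263.6 TPM in HT OSN. Here too every HT library was above every MexHT library. The log2 difference of -0.77 (SE 0.31, 95% interval -1.45 to -0.08) had an adjusted p of 0.0738 and did not pass. Whether the authors' counting splits reads between Rtp1 and Rtp2 is not given in the sources used here.

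Reep1 was at 49.8, 108.3 and 124.9 TPM in MexHT OSN and at 96.2, 112.6 and 82.7 TPM in HT OSN. The HT values lay inside the MexHT range. Its log2 difference was -0.07 (SE 0.27, 95% interval -0.67 to 0.53, adjusted p = 0.860), so a change of either sign within that interval is not told from none at this spread.

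Ric8b showed the largest fall of the 5. It was at 114.8, 167.4 and 186.1 TPM in MexHT OSN and at 547.2, 489.1 and 279.4 TPM in HT OSN. The lowest HT library was well above the highest MexHT library. The log2 difference was -1.45 (SE 0.23, adjusted p = 0.00142), 2.73-fold lower, and it was called in all 9 fits without 1 library, from -1.74 to -1.26.

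Gfy was at 1391, 1766 and 2031 TPM in MexHT OSN and at 4589, 4687 and 3555 TPM in HT OSN. The HT libraries again lay above all MexHT libraries. The log2 difference was -1.30 (SE 0.17, adjusted p = 0.000603), 2.46-fold lower, again called in all 9 fits without 1 library.

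Beside these falls, mature OSN markers were lower in MexHT OSN (9 of 10 called lower, median log2 difference -1.75 against 0.03 for all genes) and immature markers higher (7 of 10 called higher, median 0.94). Immune markers were lower too (8 of 10 called, median -2.35), with sums of 364.8 to 630.3 TPM in MexHT OSN and 1274 to 5197 TPM in HT OSN. In bulk libraries fewer cells of a type and less RNA per cell cannot be told apart, and the part of these marker differences in the helper differences was not tested. With the Xist level as a covariate, Ric8b had a log2 difference of -1.60 (adjusted p = 0.0773), Gfy of -1.39 (0.0608) and Rtp1 of -0.87 (0.387), so no helper was called, where 2.05% of genes (329) were. The 1 HT OSN library with high Xist had 617.8 TPM of Rtp1, 489.1 TPM of Ric8b and 4687 TPM of Gfy. Like the other HT OSN libraries, it was above every MexHT OSN library for these genes. With 1 such library the part of the Xist level and that of the construct cannot be told apart.

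**Figure D2:**
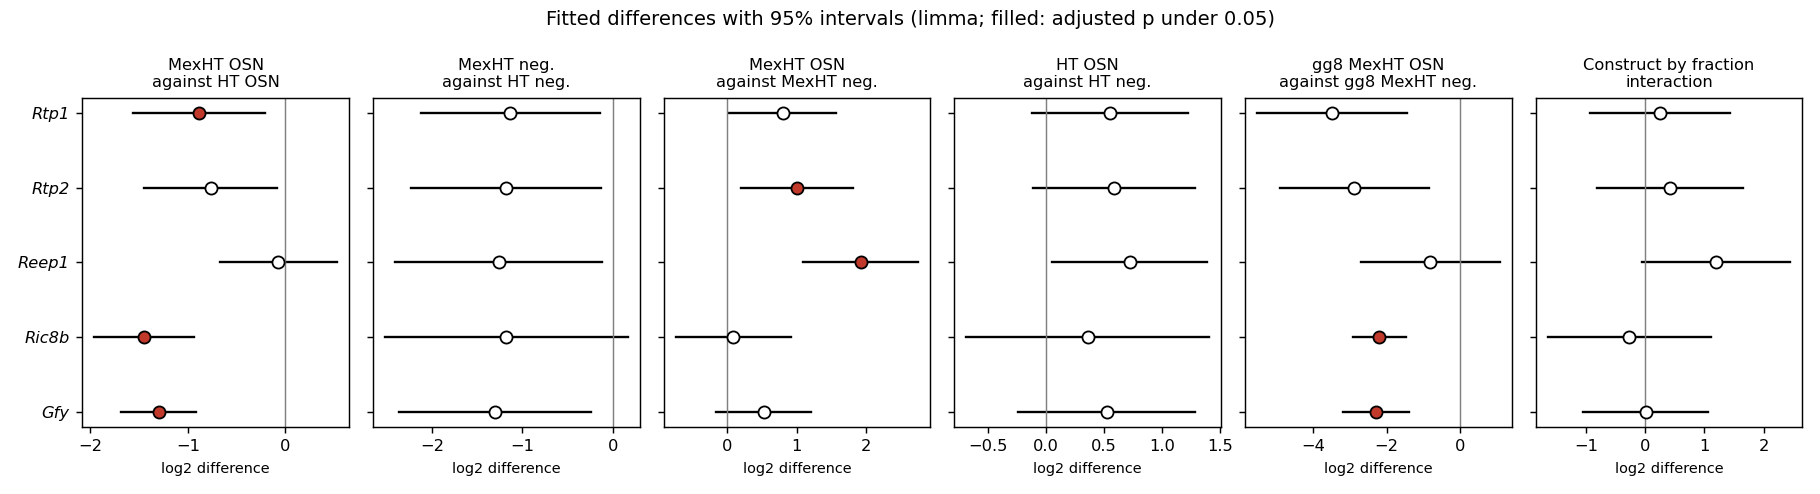
Fitted log2 differences of the 5 helpers (points) with 95% intervals (lines) in each comparison, from limma on log2(TPM + 1), with axes that differ between panels; filled points passed an adjusted p under 0.05. Ric8b and Gfy stand farthest left where MexHT and HT OSN are compared (-1.45 and -1.30), and Reep1 farthest right where MexHT OSN are set against mCherry-negative cells (1.92).

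In mCherry-negative cells, MexHT was compared with HT as the same contrast outside the sorted neurons. No helper was called, and no gene of 16860 was (0%), by limma or by limma-voom on recovered counts, although 4 helpers and 3465 genes had an unadjusted p under 0.05. The 5 MexHT libraries, in replicate order, had 237.3, 342.5, 125.5, 191.3 and 84.5 TPM of Rtp1, against 440.0, 510.9 and 255.0 TPM in HT. Reep1 was at 32.5, 54.6, 14.6, 27.1 and 9.92 TPM in MexHT and at 58.6, 85.5 and 38.8 TPM in HT. Groups overlapped for all 5 helpers (8.71% of all genes did not overlap), with replicates 3 and 5 lowest in MexHT and replicate 3 lowest in HT. The log2 differences were all negative and close together, from -1.30 for Gfy (adjusted p = 0.218) to -1.13 for Rtp1 (0.221). Ric8b had -1.18 (0.283), with 53.8 to 311.3 TPM in MexHT and 171.4 to 502.3 TPM in HT. Mature OSN markers had a median of -1.97 in the same contrast, with none called.

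Whether the construct difference in OSN differed from that in mCherry-negative cells was tested with an interaction term over the 17 libraries. None of the 5 helpers passed it, where 12.4% of 16785 genes did, and none had an unadjusted p under 0.05. Limma-voom called none either. The interaction was 0.0031 for Gfy (SE 0.50, 95% interval -1.06 to 1.07), -0.27 for Ric8b (SE 0.65), 0.25 for Rtp1 (SE 0.56) and 0.42 for Rtp2 (SE 0.58). Reep1 had the largest, 1.20 (SE 0.59, adjusted p = 0.202), and with the mouse as a block it was 1.27 (adjusted p = 0.0277) and called, where 15.5% of genes were.

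MexHT OSN were then set against the mCherry-negative cells of the same mice. Rtp2 and Reep1 were higher in OSN, Reep1 most of all, while Ric8b was near equal. The fit called 2 of 5 helpers, both higher, where 63.4% of 16522 genes were called and 35.8% were called higher. With each mouse as a block, which leaves out OSN replicate 6 for want of a partner, Rtp1 was called as well (log2 difference 0.89, adjusted p = 0.00401), where 65% of genes were.

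Reep1 was at 124.9, 116.1, 106.7, 109.9 and 49.8 TPM in OSN of mice 1 to 5 and at 32.5, 54.6, 14.6, 27.1 and 9.92 TPM in their mCherry-negative cells. It was higher in OSN in 5 of 5 mice, by 2.13 to 7.32 times, although the lowest OSN value lay under the highest mCherry-negative value. The log2 difference was 1.92 (SE 0.38, adjusted p = 0.000778), and it was called in all 11 fits that left out 1 library, from 1.63 to 2.21.

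Rtp1 and Rtp2 were higher in OSN of 5 of 5 mice as well. Rtp1 was 1.09 to 3.40 times its mCherry-negative level (median 1.81) and Rtp2 1.39 to 3.93 times (median 2.04). Their log2 differences were 0.80 (SE 0.35, adjusted p = 0.0637) and 1.01 (SE 0.37, adjusted p = 0.0296). The call of Rtp2 ended without mCherry-negative replicate 3 (0.88, adjusted p = 0.0744) or 5 (0.73, adjusted p = 0.0748), without any of OSN replicates 1 to 4 (0.0533 to 0.0594), and with median-of-ratios scaling (0.87, adjusted p = 0.0572), which moved the median of all genes from 0.16 to 0.03.

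Ric8b and Gfy differed less. Ric8b was higher in OSN in 2 of 5 mice, at 0.578 to 2.13 times, with a log2 difference of 0.09 (SE 0.38, adjusted p = 0.844) that was -0.045 with median-of-ratios scaling. Gfy was higher in 4 of 5 mice, at 0.758 to 2.55 times, with 0.53 (SE 0.31, adjusted p = 0.160). Mice 3 and 5, whose mCherry-negative libraries had the lowest mature marker sums, gave the 2 highest ratios for all 5 helpers. Their ratios were 7.32 and 5.02 for Reep1, 3.93 and 2.23 for Rtp2, 3.40 and 1.87 for Rtp1, and 2.09 and 2.13 for Ric8b. Beside these differences, connective tissue and vessel markers were called lower in OSN in 7 of 7 cases (median -5.33). All 10 immature OSN markers were higher, and 8 of them were called (median 1.03).

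In HT mice no helper was called in OSN against mCherry-negative cells (11.3% of 17027 genes were), and Reep1 had an unadjusted p under 0.05; limma-voom called no helper. Rtp1 was at 653.3, 617.8 and 451.1 TPM in OSN of mice 1 to 3 and at 440.0, 510.9 and 255.0 TPM in their mCherry-negative cells. It was higher in OSN in 3 of 3 mice, but the groups overlapped. Rtp2, Reep1 and Gfy were likewise higher in 3 of 3 mice and Ric8b in 2 of 3. Log2 differences were 0.72 (SE 0.28) for Reep1, 0.59 (SE 0.29) for Rtp2, 0.55 (SE 0.28) for Rtp1, 0.52 (SE 0.32) for Gfy and 0.36 (SE 0.44) for Ric8b. With the mouse as a block Reep1 (adjusted p = 0.0226), Rtp1 (0.0305) and Rtp2 (0.0327) were called higher, where 29.2% of genes were called in either direction. Connective tissue and vessel markers were called lower in OSN in 6 of 7 cases (median -6.11).

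**Figure D3:**
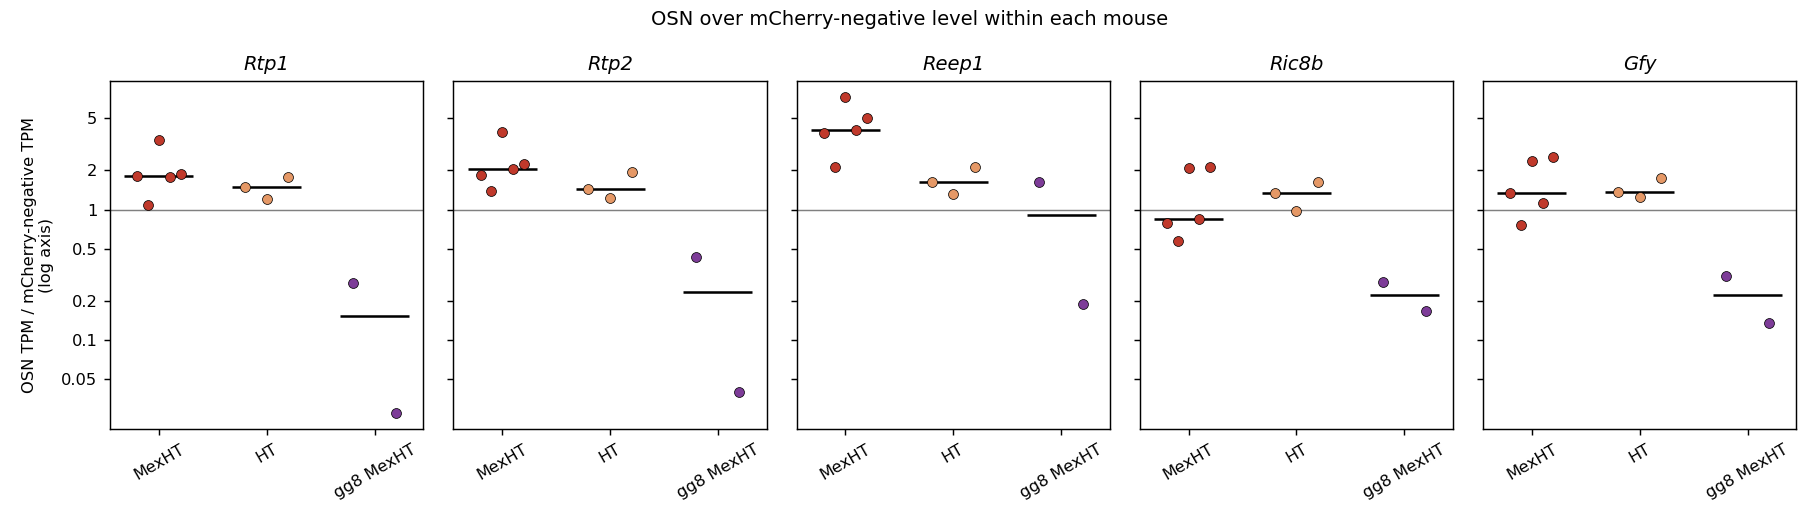
Level in OSN divided by the level in mCherry-negative cells of the same mouse (log axis) for each helper; points are mice, bars medians and the grey line marks 1. Reep1 has the highest median in MexHT (4.05), and Rtp1, Rtp2, Ric8b and Gfy lie below 1 in both gg8 MexHT mice.

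With the gg8tTA driver only, the sorted cells were labelled as immature OSN, and mature markers were high in the mCherry-negative cells. Ric8b and Gfy were lower in the sorted cells, and Rtp1 and Rtp2 had larger differences with wider errors that did not pass. Of 5 helpers 2 were called, both lower, where 8.32% of 16490 genes were called and 7.2% were called lower. Groups did not overlap for 4 helpers, with OSN lower, against 30.2% of all genes.

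Ric8b was at 96.8 and 87.4 TPM in OSN of mice 1 and 2 and at 345.9 and 522.2 TPM in their mCherry-negative cells. The log2 difference was -2.20 (SE 0.30, adjusted p = 0.0205), 4.58-fold lower. Gfy was at 899.5 and 648.4 TPM in OSN and at 2922 and 4754 TPM in mCherry-negative cells, a log2 difference of -2.29 (SE 0.37, adjusted p = 0.0272), 4.87-fold lower. Both genes were lower in OSN in 2 of 2 mice.

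Rtp1 was at 131.6 and 16.5 TPM in OSN against 476.2 and 599.7 TPM, and Rtp2 at 99.9 and 12.9 TPM against 231.6 and 324.3 TPM. The sorted library of mouse 2 was far below that of mouse 1 for both genes, and also for Reep1 (78.9 and 12.6 TPM against 48.6 and 66.3 TPM in mCherry-negative cells). The log2 differences were -3.47 (SE 0.85, adjusted p = 0.0565) for Rtp1, -2.88 (SE 0.84, adjusted p = 0.0825) for Rtp2 and -0.81 (SE 0.78, adjusted p = 0.502) for Reep1. With the mouse as a block Rtp1 (adjusted p = 0.0232) and Rtp2 (0.0400) were called, where 9.27% of genes were. Reep1 was 1.62 times its mCherry-negative level in mouse 1 and 0.190 times in mouse 2, so its direction differed between the mice. With 2 mice every count here rests on single libraries. Without 1 library, which leaves 1 in a group, log2 differences ranged from -4.94 to -2.01 for Rtp1 and -4.30 to -1.45 for Rtp2. Reep1 then ranged from -2.09 to 0.47, Ric8b from -2.49 to -1.90 and Gfy from -2.64 to -1.93.

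Mouse 2 was also below mouse 1 in the mature marker sum of the sorted cells (263.1 against 542.3 TPM) and in odorant receptor genes at 1 TPM or more (4 against 149). It was above mouse 1 in Mex3a (1632 against 460.3 TPM) and in Xist (159.4 against 0.441 TPM). The part of these differences in the helper values was not tested. In mouse 2, with 15358109 counts, the low values still rested on 251 counts for Rtp1, 153 for Rtp2 and 233 for Reep1. In this contrast 9 of 10 mature markers were called lower, with a median of -4.76, so the fitted differences of all 5 helpers were smaller in size than that median.

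To set the helpers beside the amount of mature OSN RNA in a library, the mean log2(TPM + 1) of the 10 mature markers was subtracted from that of each helper. On this scale each of the 6 MexHT OSN libraries exceeded each of the 3 HT OSN libraries for Reep1, Rtp2 and Rtp1. The differences were 1.72 for Reep1, 1.02 for Rtp2 and 0.90 for Rtp1 (each exact permutation p = 0.0238, the smallest that 6 against 3 can give, two-sided; 0.162 after adjustment over 25 tests). Gfy had 0.49 (exact permutation p = 0.0714) and Ric8b 0.34 (exact permutation p = 0.238), both with overlap. Reep1 stood at -1.97 to -1.03 in MexHT OSN and at -3.65 to -3.23 in HT OSN, so it was not as far below the markers in the former.

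The order of the helpers was the same with another reference, but the size and sign of the differences depended on it. Against Omp alone the differences were 0.81 for Reep1 and 0.11 for Rtp2, still positive, and -0.0092 for Rtp1, -0.57 for Ric8b and -0.42 for Gfy. None of the 25 tests passed after adjustment with either reference. Only those of MexHT OSN against MexHT mCherry-negative cells could have, since the smallest exact p elsewhere is too large for adjustment over 25 tests. With the 10 markers 4 tests had an unadjusted exact permutation p under 0.05. The fourth was Reep1 in MexHT OSN against MexHT mCherry-negative cells, with a difference of 1.24 (exact permutation p = 0.0260, adjusted 0.162).

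In gg8 MexHT OSN all 5 helpers were higher relative to the mature markers than in the mCherry-negative cells of the same mice, by 3.90 for Reep1, 2.52 for Ric8b, 2.43 for Gfy, 1.84 for Rtp2 and 1.24 for Rtp1. An exact test of 2 against 2 libraries cannot go below 0.333, so these differences could not pass. HT OSN and HT mCherry-negative cells differed by at most 0.22 on this scale (Reep1), where 3 against 3 cannot go below 0.1.

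**Figure D4:**
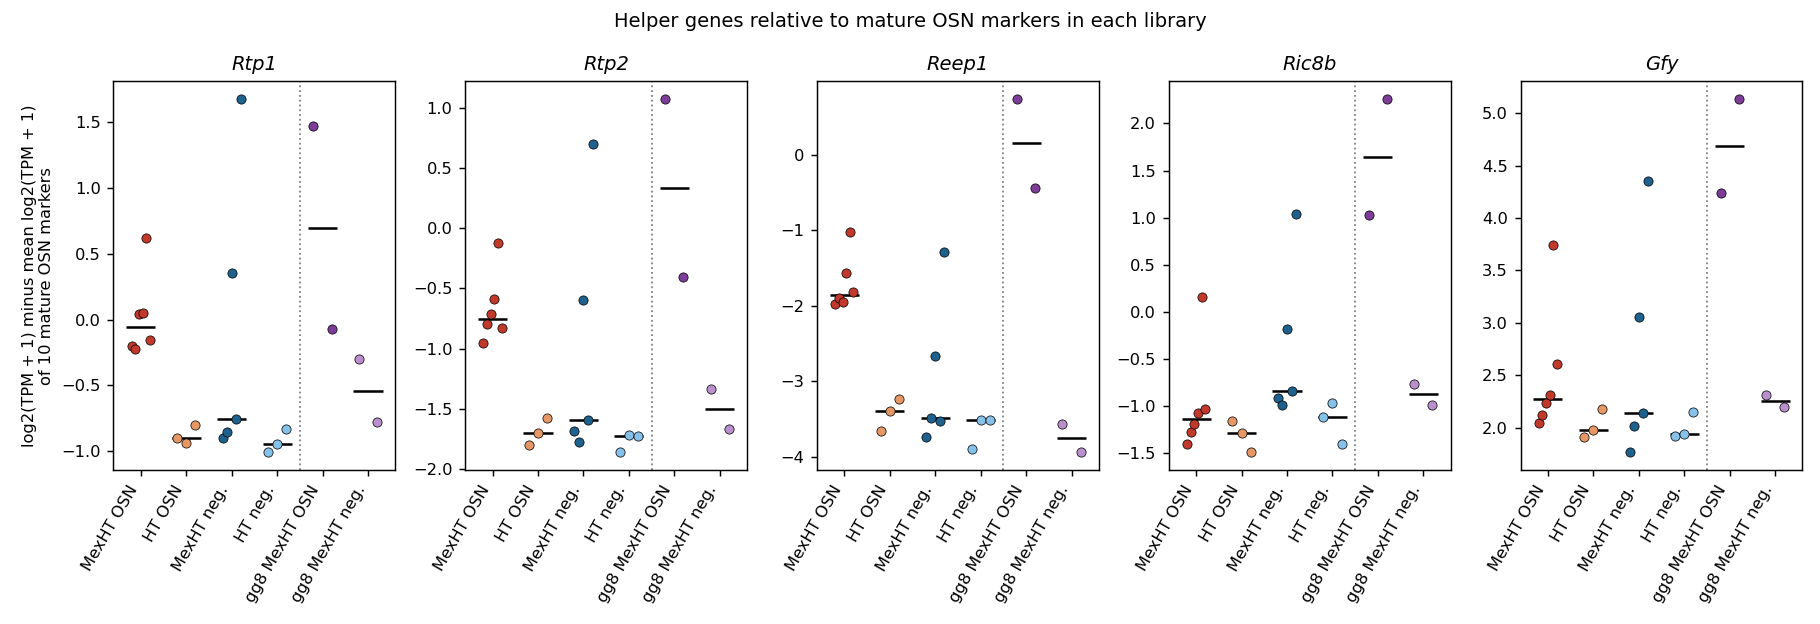
Each helper relative to mature OSN markers in each library, as log2(TPM + 1) minus the mean log2(TPM + 1) of the 10 markers; points are libraries, bars medians and the dotted line parts the tables. Reep1 is at -1.97 to -1.03 in MexHT OSN and at -3.65 to -3.23 in HT OSN, and MexHT mCherry-negative replicate 5 is the highest of its group in every panel.

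Ratios between helpers within a library need no scaling between libraries and were described after the levels had been seen, with no test. Rtp1 over Rtp2 lay between 1.49 and 1.998 over the 17 libraries of gg8tTA; OMPtTA mice. It was 1.489 to 1.689 in MexHT OSN and 1.691 to 1.861 in HT OSN, narrowly without overlap. The mCherry-negative cells of these mice had 1.729 to 1.998 in MexHT and 1.717 to 1.866 in HT. In gg8 MexHT OSN it was 1.28 and 1.32, against 1.85 and 2.06 in their mCherry-negative cells. Sorted cells had the larger ratio in 0 of 5 MexHT, 1 of 3 HT and 0 of 2 gg8 MexHT mice. Reep1 over Rtp1 was 0.250 to 0.325 in MexHT OSN and 0.147 to 0.183 in HT OSN, without overlap. It was 0.599 and 0.762 in gg8 MexHT OSN and 0.102 and 0.111 in their mCherry-negative cells. In mCherry-negative cells of gg8tTA; OMPtTA mice it was 0.116 to 0.160 in MexHT and 0.133 to 0.167 in HT. The ratio in OSN exceeded that in mCherry-negative cells of the same mouse in 5 of 5 MexHT, 3 of 3 HT and 2 of 2 gg8 MexHT mice, so its direction was shared by both constructs. Gfy over Rtp1 was 7.02 to 7.88 in HT OSN, 4.57 to 8.78 in MexHT OSN, and 6.83 and 39.3 in gg8 MexHT OSN, where the second value comes from the library with 251 counts of Rtp1.

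**Figure D5:**
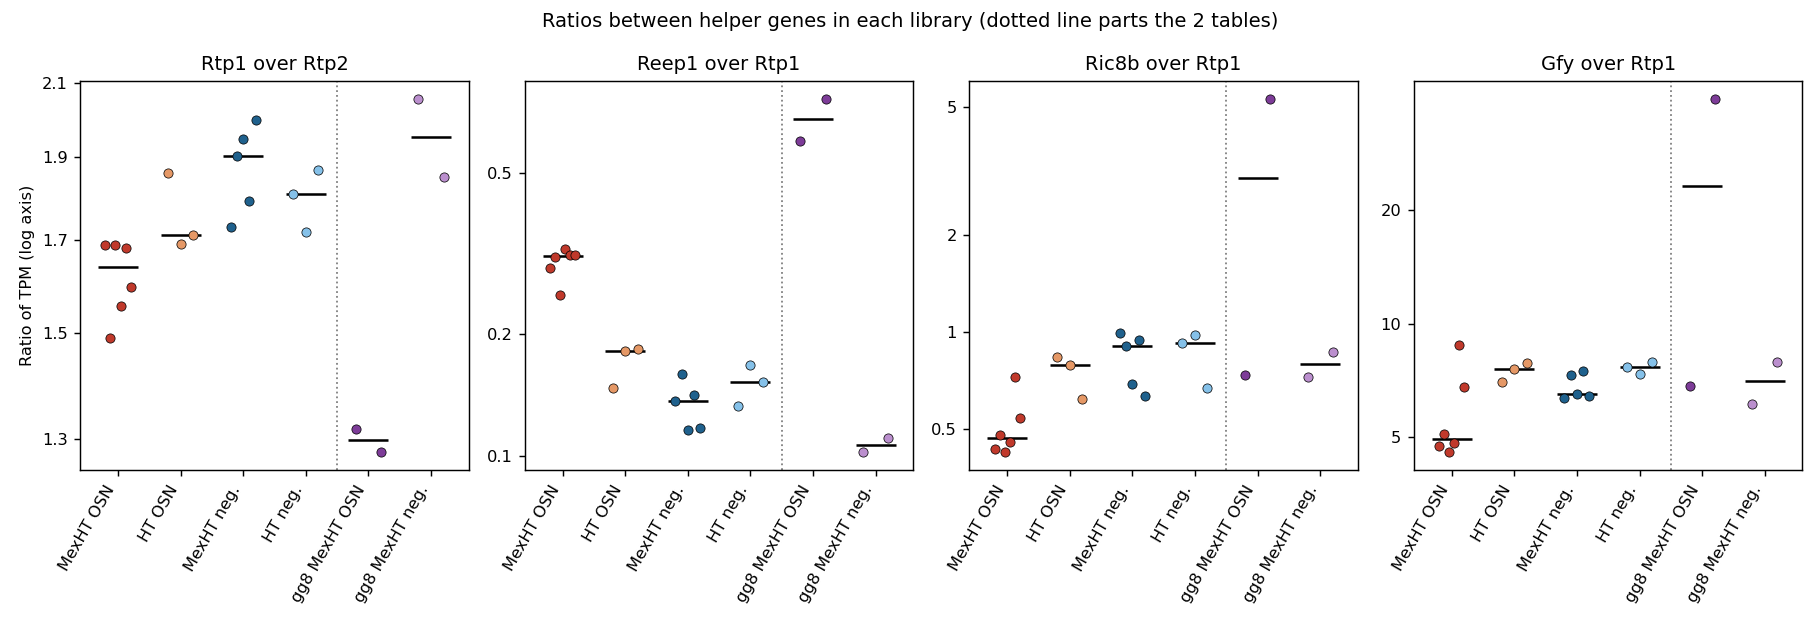
Ratios of TPM between helper genes in each library (log axes that differ between panels); points are libraries, bars medians and the dotted line parts the tables. Reep1 over Rtp1 is 0.250 to 0.325 in MexHT OSN and 0.147 to 0.183 in HT OSN.

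Over the 17 libraries of gg8tTA; OMPtTA mice, which share the table and fall into 4 groups, levels of Rtp1 and Rtp2 had a Pearson correlation of 0.993 and Reep1 and Ric8b the weakest of the 10 pairs, 0.610. After subtraction of group means the 10 pairs lay between 0.917 (Rtp1 and Gfy) and 0.994 (Rtp1 and Rtp2), so within a group the libraries ranked all 5 much alike. Genes among the most like each helper of 12173 genes, given as a description, were Rap1gds1 (0.989) and Syngr1 for Rtp1, and Snap25 (0.996), Lrrn1 and Armc4 for Rtp2. For Reep1 they were Tspyl4 (0.994), Rtn4rl1 and Panx2, for Ric8b Fgf12 (0.983), Pde7b and Lias, and for Gfy Ephx4 (0.991), Ttc25 and Uckl1os. After subtraction of group means they were Mgat4b (0.994), Rap1gds1 and Clgn for Rtp1, Nsg1 (0.992), Snap25 and Armc4 for Rtp2, and Jph3 (0.987), Kcna5 and Rtn4rl1 for Reep1. Ric8b then had Cfap126 (0.989), Ccdc40 and Ephx4, and Gfy had Ccdc40 (0.991), Lingo1 and Lpcat4.

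Among the other RTP and REEP genes, Reep2, an ER-shaping relative of Reep1, moved most. It was at 20.9 to 37.8 TPM in MexHT OSN, 2.66 to 3.53 TPM in HT OSN, 3.56 to 4.81 TPM in MexHT mCherry-negative and 1.53 to 2.61 TPM in HT mCherry-negative cells. Every MexHT OSN library was above every other library of that table. Reep2 rose by 2.68 (log2) in MexHT OSN against HT OSN (SE 0.20, adjusted p = 6.21e-05) and by 2.35 against MexHT mCherry-negative cells (SE 0.16, adjusted p = 1.40e-07), with an interaction of 2.001 (SE 0.28, adjusted p = 0.000746). In gg8 MexHT OSN it was at 34.4 and 49.8 TPM against 4.03 and 4.96 TPM, a log2 difference of 2.95 (SE 0.46, adjusted p = 0.0255). Reep1 remained above Reep2 in all MexHT OSN libraries, with at least 49.8 TPM, but not in the gg8 MexHT OSN library of mouse 2, where Reep1 was at 12.6 TPM. The other 5 tested genes of the list did not pass in MexHT OSN against HT OSN, and Rtp3 was under the filter of a mean of 1 TPM. In MexHT OSN against mCherry-negative cells 4 fell, where 27.6% of all genes were called lower: Reep5 by 1.42 (adjusted p = 2.28e-05), Rtp4, an interferon-induced relative of Rtp1, by 1.14 (0.00468), Reep4 by 1.09 (0.0102) and Reep3 by 0.72 (0.00295).

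The olfactory G protein cascade, which receptors use once at the cilia, fell with Ric8b and Gfy in MexHT OSN against HT OSN: 9 of 13 genes were called lower and 1 higher, with a median of -1.27. Of these 13 genes 6 are also among the 10 mature markers. The largest falls were in Adcy3, the cilia adenylyl cyclase (-2.72, SE 0.38, adjusted p = 0.000765), and Cnga4, a channel subunit (-2.48, SE 0.44, adjusted p = 0.00221). Gnal, the partner of Ric8b, had -1.39 (SE 0.54, adjusted p = 0.0670) and was not called. Gnas, the more widely used stimulatory G protein, rose by 1.39 (SE 0.26, adjusted p = 0.00316), with 106.7 to 165.9 TPM in MexHT OSN and 34.0 to 85.7 TPM in HT OSN. Ric8a, the relative of Ric8b that serves other G proteins and is listed as Ric8, had 0.43 (SE 0.19, adjusted p = 0.0994). In gg8 MexHT OSN against mCherry-negative cells 8 of 13 cascade genes were called lower (median -3.94), where 7.2% of all genes were. The largest falls there were in Gnal (-5.13, SE 0.44, adjusted p = 0.00779) and Cnga2 (-4.73, SE 0.76, adjusted p = 0.0266). In MexHT OSN against mCherry-negative cells 4 of 13 were called higher, a share near the 35.8% of all genes called higher, with Cnga2 (1.13, adjusted p = 0.0431) and Pde4a (0.68, adjusted p = 0.0431), and Gnas lower (-0.50, adjusted p = 0.00371). The median was 0.54, and the 4 became 1 with median-of-ratios scaling.

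The general machinery of ER entry, folding and export moved little beside the helpers in MexHT OSN against HT OSN. Of its 24 genes 3 were called higher and 1 lower, with a median of 0.09. Sec61g and Sec61b, subunits of the ER translocon, rose by 0.53 (adjusted p = 0.0173) and 0.40 (adjusted p = 0.0263), and Sec24d, a cargo adaptor of COPII vesicles, fell by 0.97 (SE 0.11, adjusted p = 0.000229). In MexHT OSN against mCherry-negative cells 10 of 24 were called lower, where 27.6% of all genes were, and 3 higher, where 35.8% were. Both directions together were no larger a share than the 63.4% of all genes called. With median-of-ratios scaling 13 were called lower and 3 higher. Those called lower included Lman1, an ER cargo receptor, which fell by 1.31 (adjusted p = 3.85e-06), and Hspa5, the ER chaperone BiP, which fell by 0.76 (adjusted p = 0.000827). Sec24c and Copa rose by 0.54 (adjusted p = 0.000408) and 0.51 (adjusted p = 0.000183).

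In the receptor feedback loop, receptor protein in the ER acts through Eif2ak3 (PERK) and Atf5 to end the expression of Kdm1a (Lsd1). The list described here held Eif2ak3, Atf5, Kdm1a and Ddit3, and also the transcription regulators Lhx2, Ldb1, Ebf1, Ebf2, Ebf3, Ebf4 and Emx2. Its genes were called in both directions in MexHT OSN against HT OSN: 5 of 11 higher and 2 lower (median 0.10). Of all genes 19.9% were called higher and 16.8% lower. Kdm1a rose by 1.01 (SE 0.14, adjusted p = 0.000711) and Eif2ak3 by 0.74 (SE 0.14, adjusted p = 0.00276). Ebf4 fell by 0.85 (adjusted p = 0.00551) and Ebf2 by 0.74 (adjusted p = 0.00863), while Atf5 had -0.085 (adjusted p = 0.726). Against mCherry-negative cells 9 of 11 were called higher in MexHT OSN, against 35.8% of all genes, with the largest differences in Emx2 (1.53, adjusted p = 1.27e-06) and Ebf3 (1.18, adjusted p = 0.000221). The odorant receptor genes, whose proteins Rtp1 and Rtp2 carry, summed to 488.9 to 1245 TPM in MexHT OSN. In HT OSN the sum was 799.4 to 3091 TPM. Of 373 tested between these 2 groups, 92 were called lower in MexHT OSN and 1 higher (median -0.85). In gg8 MexHT OSN 293 of 822 tested were called lower than in mCherry-negative cells, where 7.2% of all genes were.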

How the data were processed

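RNA of 21 sorted-cell libraries was, per the labels, extracted with TRIzol and made into stranded total RNA libraries. The authors deposited 2 tables of TPM values per gene symbol, scaled separately. Per the submitters' processing notes the build was mm10 and FastQC, cutadapt, STAR and bedtools were used; counting program, annotation and use of strand are not given in the sources used here. Symbols that had become dates (27 per table, at most 0.221% of any library's TPM) were removed from the 23614 and 22945 genes. TPM keeps whole multiples of a step per gene, which gave whole counts (tolerance 0.02) for 100% and 99.86% of genes. These served for depth and limma-voom.

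Comparisons were fitted with limma 3.58.1 (R 4.3.3) on log2(TPM + 1), requiring a mean of 1 TPM over the groups compared, two-sided, with Benjamini-Hochberg adjustment over all genes and a threshold of 0.05. A fold change on this scale understates the change of low genes. Single values were compared by exact permutation tests (scipy 1.17.1). The fits were tested on simulated data with a spread set in advance. Changes of 1 (log2) were recovered in 44% of changed genes for MexHT OSN against HT OSN and 28% for mCherry-negative cells. For OSN against mCherry-negative cells it was 72% in MexHT, 17% in HT and 5% in gg8 mice. Changes of 2 were recovered in 79% (gg8 mice) to 100%. Genes called without a set change numbered 5 to 44, most in gg8 mice. A gene that was not called can thus still differ. Same-numbered OSN and mCherry-negative libraries come from 1 mouse per the labels, so the mouse was an alternative block; their deviations correlated at -0.11 to 0.42 in MexHT, 0.17 to 0.47 in HT and 0.018 in gg8 mice. Same-numbered mCherry-negative libraries of MexHT and HT mice correlated at 0.34, 0.42 and 0.23 and were also blocked. Whether a library pools mice is not given, so p-values measure the spread between these libraries.

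Members, gene lists and tests were chosen with earlier results of these data known. Named are the 5 helpers, the 2 largest rises and falls past the threshold in each list described, and the 3 genes of highest correlation per helper with a mean of at least 5 TPM, leaving out predicted genes, odorant receptors, small RNAs and pseudogenes; 1 gene that this rule names is not reported here. Other list genes (Gnal, Ric8a, Atf5, Reep3, Reep4) were named after their values were seen. Alternatives were a pseudocount of 0.1, no filter, median-of-ratios scaling, limma-voom, all 4 groups in 1 fit, the replicate block, Xist as a covariate, Omp as the reference and leaving out each library. RNA editing was not analysed here.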

Additional observations from a re-analysis of the deposited data

Results flagged for a closer look

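Relative to the mature OSN markers, MexHT OSN replicate 5 stood apart above the other 5 libraries of its group for 3 helpers, at 0.62 for Rtp1, 0.16 for Ric8b and 3.75 for Gfy on the log2 scale. This is the library with the lowest mature marker sum of the group (1755 TPM). Chance flags about 1 in 20 such groups, and 20 were examined. The 3 flags share 1 library and 1 marker mean, and the helpers varied together within groups, so they are not independent.

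The direction of the per-mouse ratio was opposite in the 2 kinds of MexHT mice for Rtp1 and Rtp2, and the difference was not tested because the tables were scaled separately. Rtp1 in OSN was above its mCherry-negative level in 5 of 5 gg8tTA; OMPtTA mice (median 1.81 times) and below it in 2 of 2 gg8tTA mice (median 0.152 times). For Rtp2 the medians were 2.04 and 0.236 times. The sorted cells were immature and mature OSN in the former mice and immature OSN in the latter, and library date differed too.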

How the results depend on the processing

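Where MexHT OSN were compared with HT OSN, the 3 called helpers became 0 with Xist as a covariate and 2 to 3 without 1 library. Against MexHT mCherry-negative cells the 2 calls became 1 with median-of-ratios scaling and 1 to 4 without 1 library. With the replicate block 3 helpers were called in HT mice instead of 0, 4 in gg8 mice instead of 2 and 1 in the interaction instead of 0; without 1 library the counts were 0 to 1, 0 to 5 and 0. The count of 0 in the test relative to mature markers held in the settings run. With all libraries only the tests of MexHT OSN against MexHT mCherry-negative cells could have passed. Same-numbered OSN libraries of MexHT and HT mice did not deviate together (0.11, 0.13 and -0.23). The block by number rests on replicates 1 to 3 and gave 0.26 for Reep1, whose sign changed, and -0.47 for Rtp1 (adjusted p = 0.0683), whose call ended. The call of Rtp1 also ended with no filter (0.0535) and with all 4 groups in 1 fit (0.0861). The block changed no call among mCherry-negative cells. Values that changed sign were not called. Ric8b in MexHT OSN against mCherry-negative cells was -0.045 with median-of-ratios scaling and -0.014 with limma-voom, and Gfy in the interaction was -0.10 and -0.0060. Without 1 library, Reep1 ranged from -0.18 to 0.10 in MexHT OSN against HT OSN and from -2.09 to 0.47 in gg8 mice, and Ric8b from -0.26 to 0.37 in MexHT and -0.10 to 0.67 in HT mice. In the interaction Rtp1 ranged from -0.014 to 0.54, Ric8b from -0.62 to 0.20 and Gfy from -0.28 to 0.28. Relative to mature markers, OSN against mCherry-negative cells ranged from -0.083 to 0.56 for Rtp1 and -0.40 to 0.27 for Gfy in MexHT mice, and from -0.060 to 0.091 for Gfy in HT mice. Relative to Omp, MexHT OSN against HT OSN gave -0.0092 for Rtp1, -0.57 for Ric8b and -0.42 for Gfy, and against mCherry-negative cells -0.69 for Rtp1 and -0.48 for Rtp2. Other causes of these changes were not tested. Helpers had at least 112 recovered counts in every library.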
